A study of Mus musculus with 36 samples.

Results

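Cultures of mouse lymphoma cells that expressed a mutant TRP53 protein labelled G280 were compared before and after treatment with nutlin-3a. The comparison takes 6 of the 36 libraries of the study, chosen by their labels: 3 untreated and 3 treated, with 1 library of each kind from the cell lines AH47A (titled 47A), 287 and 621, paired by line. All 36 libraries share the Em-myc background, in which a Myc transgene driven by an immunoglobulin heavy chain enhancer gives lymphomas of the B lineage. The treated cultures received 5 µM nutlin-3a for 12 hours together with 25 µM QVD-OPH, a caspase inhibitor of broad reach. The labels do not say if the inhibitor was also added to untreated cultures, and effects of nutlin and inhibitor cannot be told apart in what is called the nutlin response. Of the other libraries, 6 come from the same lines with a negative control construct and 24 with 1 of 4 other mutants, I192S, R246Q, R270H and V170M. The label G280 names no replacing residue. Human TRP53 is named as the expressed protein in the design text, whereas the count table lists mouse genes. No independent repeat of a line is named. P-values of the G280 response measure the spread of that response over these 3 lines. Those of differences between constructs, and of line by treatment, come from 1 fit of all 36 libraries. There the 6 constructs within a line give the spread, so these calls are not repeats over independent cultures.

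p53, the product of Trp53, is a transcription factor that binds DNA as a tetramer. MDM2 binds it and marks it for degradation, and nutlin-3a fills the pocket of MDM2 in which p53 docks, so that p53 accumulates and raises genes of cell-cycle arrest, apoptosis and its own feedback. Mutant p53 chains can enter tetramers with wild-type chains. Lymphomas of Em-myc mice that keep wild-type p53 are known for their sensitivity to nutlin, which kills them mainly through p53 targets of the BCL2 family.

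Library totals ran from 7640187 to 9020618 counts in the untreated and from 7445649 to 8290395 in the treated G280 libraries, within the range of all 36 (5404113 to 10718302). The G280 libraries carried markers of the B lineage, early ones as well as mature ones. The summed level of 18 mature B cell markers was 4001 to 5195 CPM (a gene's count as a share of its library's scaled total) untreated and 3497 to 5116 CPM treated. Ighm alone gave 1921 to 3234 CPM of this and Pax5 94.9 to 141 CPM, while Ms4a1, Cr2, Fcer2a and Cd83 stayed at or below 2.18 CPM in every library. The 15 early B lineage markers summed to 820 to 1840 CPM untreated and 878 to 1167 CPM treated, and differed between lines. Untreated Igll1 was 217 CPM in AH47A and 0 in 621, and Rag1 0.264 and 146 CPM. Plasma cell markers summed to 590 to 1165 CPM untreated and 561 to 683 CPM treated, with Prdm1 at no more than 1.09 CPM. NK cell markers summed to at most 0.733 CPM and erythroid markers to at most 1.502 CPM. T cell markers summed to 6.08 to 70.0 CPM untreated and 5.83 to 85.7 CPM treated, with Cd3e, Cd3g, Cd4 and Cd8a at 0 counts in all 6 libraries. Cd2 gave 70.0 CPM in untreated and 85.7 CPM in treated 621, and Zap70 17.7 CPM in treated 287. Myeloid markers summed to 7.67 to 21.5 CPM untreated and 15.3 to 50.9 CPM treated, with 3 of 11 at 0 in all 6 libraries and Lyz2 at no more than 0.221 CPM in any. Itgam reached 39.8 CPM in treated 287 and Fcgr3 17.7 CPM in treated 621. Endothelial markers summed to 59.5 to 119.5 CPM untreated and 34.9 to 53.8 CPM treated, nearly all of it Pecam1, with Kdr at 0 in all 6 libraries and Cdh5 at no more than 1.65 CPM. The part of these markers in the results was not tested. In bulk RNA, fewer cells of a type and less RNA per cell cannot be told apart.

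Trp53 itself, which checks the construct, was far above the control level in untreated G280 cells and did not move with nutlin beyond the spread between lines. Its level was 904 CPM untreated and 777 CPM treated in AH47A, 1973 and 1321 CPM in 287, and 1059.7 and 801 CPM in 621. Levels were lower after treatment in every line, but the groups overlapped, and the log2 fold change was -0.39 ± 0.14 (estimate ± standard error, edgeR quasi-likelihood test with line as block, adjusted p = 0.190). With the control construct the untreated levels were 219, 290.1 and 207 CPM in AH47A, 287 and 621, and all of them were higher after nutlin, at 262, 445 and 297 CPM. Untreated G280 cells exceeded untreated control cells by 2.39 ± 0.25 on the log2 scale (adjusted p = 4.45e-05). This was the only gene called (adjusted p under 0.05) in that comparison, 0.00812% of 12321 tested. The call was lost without line 287 (adjusted p = 0.129) or without 621 (adjusted p = 0.115). The opposite directions in the control and G280 did not pass a test of the difference in response (-0.88 ± 0.34, adjusted p = 0.256). Trp53 lies on mouse chromosome 11 at 69580348 to 69591873 of GRCm38.p6, and its counts can hold reads of the endogenous gene and of the construct.

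By edgeR's test on the G280 libraries, few genes were called across lines, and most of these rose. Among 10928 genes tested, 117 rose (1.07%) and 13 fell (0.119%). In the same test 2462 genes had an unadjusted p under 0.05. With 2 degrees of freedom left, the few calls do not show that nutlin changed few genes. Both the number and the balance depended on the tool and design: DESeq2 called 410 higher and 181 lower, and an additive fit of all 36 libraries 1318 higher and 826 lower. A rise of at least 2-fold in each of the 3 lines was seen for 168 genes (1.54%) and such a fall for 8 (0.0732%). Of the 117 risers, 116 were higher in all lines and 99 had no treated library below an untreated one. Among all 10928 genes these numbers were 2655 and 937. The median log2 fold change was 2.66 among risers, -1.37 among falls and -0.02 over all genes tested. Without line AH47A 73 genes were called, without 287 562 and without 621 253. Of the 130 genes called, 60, 124 and 117 respectively passed again with the same sign. Chosen after their values were seen, the mitochondrial ribosomal RNA genes mt-Rnr1 (1.41 ± 0.20, adjusted p = 0.0332) and mt-Rnr2 (1.46 ± 0.23, adjusted p = 0.0446) were among the risers. Such RNAs lack the long poly(A) tails of messenger RNA, and the part of RNA selection or quality in the other results was not tested.

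Of the genes that restrain p53 itself, Mdm2 and Ccng1 rose under nutlin in cells with G280. Mdm2, the ubiquitin ligase that nutlin blocks, went from 76.3 to 247 CPM in AH47A, from 162 to 979 CPM in 287 and from 86.5 to 209 CPM in 621. Every treated library exceeded every untreated one, and the rise was 3.64-fold (log2 1.86 ± 0.26, adjusted p = 0.0282). It did not pass without AH47A (adjusted p = 0.0912). Ccng1, which encodes cyclin G1 and is an early p53 target, went from 67.8 to 439 CPM in AH47A, from 65.4 to 650.5 CPM in 287 and from 86.2 to 530.2 CPM in 621. The lines lay close together here, at 7.37-fold (log2 2.88 ± 0.18, adjusted p = 0.00152). Of 7 feedback genes tested, Mdm2 and Ccng1 rose (28.6%, against 1.07% of all genes) and none fell. The list median was 1.22 on the log2 scale, against -0.02 for all genes. Mdm4, the partner of MDM2, stood at 1.22 ± 0.28 (adjusted p = 0.113) and was higher after nutlin in every library. The count was 1 without AH47A, 6 without 287 and 4 without 621.

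Of the cell-cycle arrest genes of the p53 program, 5 of 13 tested rose (38.5%, against 1.07% of all genes). Cdkn1a, the cyclin-dependent kinase inhibitor p21, was close to silent before treatment, at 0.529 CPM in AH47A, 4.75 CPM in 287 and 4.28 CPM in 621. After nutlin it reached 199, 398 and 109.6 CPM in the same order, so that no library of the groups overlapped. The rise was 70.8-fold (log2 6.14 ± 0.55, adjusted p = 0.00772), with per-line log2 ratios of 8.003, 6.31 and 4.60. The call was lost without line 287 (adjusted p = 0.361) and with no filter on low counts (adjusted p = 0.0774). Psrc1, a microtubule protein and p53 target, rose from 7.93, 11.7 and 6.72 CPM to 72.3, 255 and 84.4 CPM in AH47A, 287 and 621 (log2 3.80 ± 0.27, adjusted p = 0.00214). Zmat3, an RNA-binding p53 target, rose from 53.5, 13.1 and 96.8 CPM to 437, 482 and 593 CPM (log2 3.54 ± 0.51, adjusted p = 0.0420). Its treated libraries all lay above the untreated ones, but the call was lost without AH47A (adjusted p = 0.209) and with no filter on low counts (adjusted p = 0.176). Plk2, a polo-like kinase, rose from 7.40 to 80.5 CPM in AH47A and from 21.2 to 249 CPM in 287, and was near 0 in 621 (0 and 0.410 CPM; log2 3.52 ± 0.20, adjusted p = 0.00128). Gtse1, a p53-binding protein of the G2 and S phases, completed the 5 risers of 13 arrest genes tested (log2 1.76 ± 0.23, adjusted p = 0.0222); none fell and the median was 0.67. The count was 3 without AH47A, 4 without 287 and 5 without 621.

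Several death genes of the p53 program rose as well, with the caspase inhibitor present. Pmaip1, which encodes the BH3-only protein NOXA, went from 1.32 to 193 CPM in AH47A, from 14.4 to 794 CPM in 287 and from 5.26 to 81.4 CPM in 621. The groups did not overlap, and the rise was 45.3-fold (log2 5.50 ± 0.52, adjusted p = 0.00969), although the call was lost without 287 (adjusted p = 0.383) and with no filter on low counts (adjusted p = 0.0868). Bbc3, which encodes PUMA, another BH3-only protein, had nearly equal untreated levels of 8.20, 8.17 and 8.80 CPM and treated levels of 213, 548 and 41.0 CPM in AH47A, 287 and 621. It was at least 2-fold higher in all lines, but the lines differed so much that the test was not passed (log2 4.42 ± 0.74, adjusted p = 0.0628). Bax, the effector that opens the outer mitochondrial membrane, rose from 60.3, 62.5 and 86.7 CPM to 158, 218 and 149 CPM (log2 1.33 ± 0.21, adjusted p = 0.0446; 0.175 without AH47A). Trp53inp1, a nuclear protein that promotes p53-driven death, rose from 145, 212 and 115 CPM to 833, 1888 and 441 CPM (log2 2.55 ± 0.25, adjusted p = 0.00969).

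A regulator of AKT and a death receptor rose from almost nothing. Phlda3, an inhibitor of AKT signalling, had 3 untreated counts in all and 812 treated counts, a ratio of 286 (95% interval 97.5 to 1389, counting error only; adjusted p = 0.00119). Its treated levels were 13.2 CPM in AH47A, 78.3 CPM in 287 and 8.19 CPM in 621. Fas, the death receptor CD95, had no untreated count and 115 treated counts, which makes it at least 40.5-fold higher against a floor of 3 counts over the group (adjusted p = 0.0346). In all, 7 of 13 apoptosis genes tested rose (53.8%, against 1.07% of all genes) and none fell (median 1.33). The remaining risers were Ei24 (1.26 ± 0.17, adjusted p = 0.0277) and Aen, an apoptosis-enhancing nuclease (0.96 ± 0.16, adjusted p = 0.0488). The count was 4 without AH47A, 7 without 287 and 8 without 621. Of 12 members of the BCL2 family tested, Pmaip1 and Bax were called (16.7%, against 1.07% of all genes) and none fell, with a median of 0.15. Both genes also count in the apoptosis list.

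**Figure D1:**
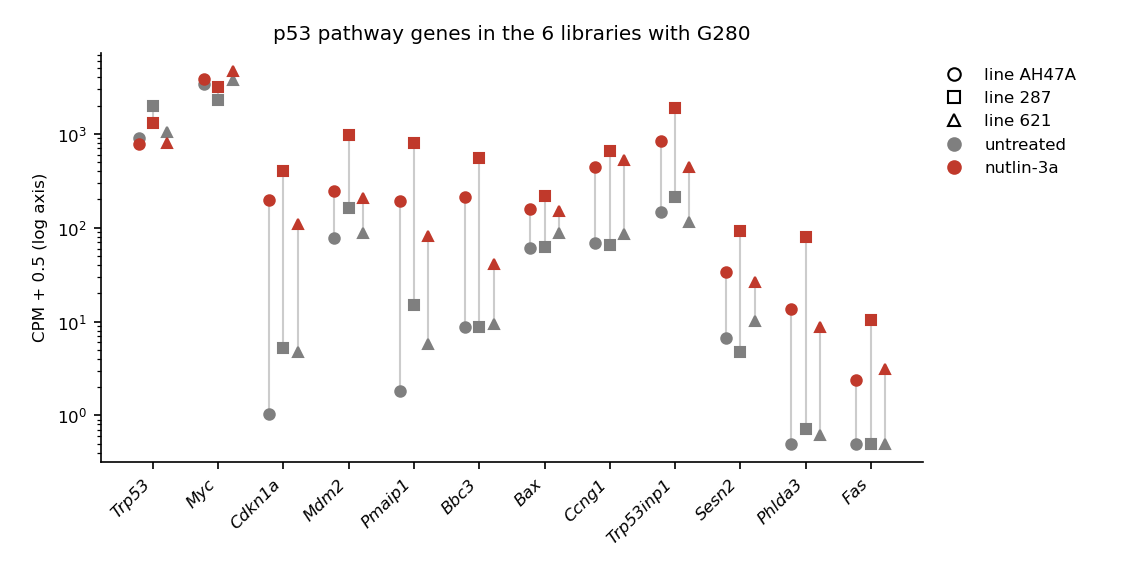
Level of 12 p53 pathway genes in the 6 libraries with G280, as CPM plus 0.5 on a log axis. Each symbol is 1 library, the symbol's shape gives the line, its colour the treatment, and a thin line joins the untreated and treated library of 1 line. Trp53 is lower after treatment in all 3 lines and Myc higher, while Cdkn1a, Pmaip1, Bbc3, Phlda3 and Fas stand far above their untreated levels in each line.

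Metabolic and repair targets were less uniform. Of 16 metabolic p53 targets tested only Ak1, an adenylate kinase, was called (6.25%, against 1.07% of all genes). It had no untreated count and 363 treated counts, at least 128-fold higher (adjusted p = 0.0119). Sesn2, a stress sensor that restrains mTORC1, went from 6.21, 4.20 and 9.53 CPM to 33.2, 92.1 and 25.7 CPM in AH47A, 287 and 621 (log2 2.73 ± 0.55, adjusted p = 0.0851). The list median was 0.05. Of 10 repair genes tested 2 rose (20%, against 1.07% of all genes) and none fell (median 0.21). These were Ercc5, the XPG nuclease of excision repair (log2 2.66 ± 0.28, adjusted p = 0.0124), and Polk, a translesion polymerase (log2 2.01 ± 0.25, adjusted p = 0.0192). Among 18 further p53 targets 8 rose (44.4%) and none fell (median 1.77). Zfp365, a zinc finger gene tied to genome stability, had 3 untreated and 463 treated counts (ratio 163, 95% interval 55.4 to 793, adjusted p = 0.00471). Cd80, the costimulatory ligand of CD28, rose from 0, 0.884 and 0.367 CPM to 5.83, 89.2 and 10.9 CPM (log2 6.27 ± 0.42, adjusted p = 0.00185). Fam212b rose to 53.2, 56.1 and 31.4 CPM from at most 2.38 CPM (log2 4.97 ± 0.27, adjusted p = 0.00118). Trp53cor1, a noncoding RNA gene beside Cdkn1a also known as lincRNA-p21, rose to 4.69, 9.67 and 3.96 CPM from at most 0.367 CPM (log2 4.56 ± 0.50, adjusted p = 0.0140).

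The promoters of 4 of the 90 risers with a RefSeq promoter held a full p53 site (4.44%), against 182 of all 27025 RefSeq promoters (0.673%) and 56 of 8429 promoters of tested genes (0.664%). The window ran from 250 bases before to 50 bases after the gene start, both strands were searched, and up to 3 letters outside the cores could differ from the consensus. With at most 1 letter off, 2 risers (2.22%) and 18 of all promoters (0.0666%) matched. The stretches are shown because they belong to genes that rose together. Capitals mark the core tetramers of the p53 consensus; sequences are from RefSeq on GRCm38.p6, written 5′ to 3′ on the gene's strand. Cdkn1a lies at chr17:29090923-29090952 (plus strand, 1 letter off), Gtse1 at chr15:85859940-85859969 (plus, 1 off), Zfp365 at chr10:67912701-67912730 (minus, 2 off) and Aen at chr7:78895932-78895961 (plus, 3 off). A match is a description of letters, and none of the 10 falls with a promoter had one.
Cdkn1a: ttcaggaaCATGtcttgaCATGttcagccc
Gtse1: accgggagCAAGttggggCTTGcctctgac
Zfp365: tagcaagaCTAGgctgggCAAGactggcac
Aen: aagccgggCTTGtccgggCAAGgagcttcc

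Several of the largest rises of the G280 response were of genes that interferon induces. By the fitted fold change, among risers with a mean of at least 5 CPM, the leading 10 were Cxcl10, Ifit1, Rsad2, Ak1, Oasl1, Gbp5, Ifit3, Rtp4, Dusp8 and Phlda3. Of 20 interferon-stimulated genes tested 10 rose (50%, against 1.07% of all genes) and none fell, with a list median of 2.44 against -0.02 for all genes, also when genes without an untreated count were set to their lower bound. Ifit1, an antiviral binder of foreign RNA caps, had 2 counts over the 3 untreated libraries and levels of 188, 546 and 116 CPM in treated AH47A, 287 and 621. Its ratio was 3618 (95% interval 1001 to 29880, counting error only; adjusted p = 6.00e-05). Cxcl10, a chemokine of the interferon response, had no untreated count and treated levels of 19.9, 293 and 18.7 CPM, at least 958-fold higher (adjusted p = 0.00185). Rsad2, which encodes viperin, had 2 untreated counts and treated levels of 22.6, 249.7 and 30.7 CPM (ratio 1303, 95% interval 360.35 to 10766; adjusted p = 0.000126). Oasl1, of the oligoadenylate synthetase family, went from at most 0.264 CPM to 31.9, 304 and 9.56 CPM (log2 8.91 ± 0.69, adjusted p = 0.00374). All 4 were highest in treated 287, and none had an untreated library near a treated one. Gbp5, a guanylate-binding GTPase that is not in the list, had 1 untreated and 540 treated counts (ratio 570.2, 95% interval 102 to 22564; adjusted p = 0.00118). Dusp8, a phosphatase of stress kinases, had 2 untreated and 660 treated counts (ratio 348, 95% interval 96.1 to 2884; adjusted p = 0.00118).

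In the G280 libraries the interferon list rose most in line 287. Each line had 1 library per treatment, so the medians of single lines carry no error. Line 287 also had the widest spread of log2 ratios over all genes tested (SD 0.979, against 0.563 in AH47A and 0.531 in 621). The median log2 ratio of the 20 tested members was 1.76 in AH47A, 4.03 in 287 and 1.07 in 621. A further 13 members were not tested, because they had enough counts in too few libraries, and all 13 had their highest count in treated 287. They had at most 6 counts in any untreated library, so a low count in a single treated library was enough to leave them out. Low treated values among them thus follow from the count filter and cannot test a difference between lines. Mx2, an antiviral dynamin-like GTPase, had 144 counts in treated AH47A, 1345 in treated 287 and 9 in treated 621, and at most 2 in any untreated library. Mx1 had 40, 450 and 0 counts and Usp18, a brake on interferon signalling, 18, 248 and 2 counts in the same order. The count of risers in the list was 9 without AH47A, 15 without 287 and 17 without 621. Under nutlin, none of 31 members tested was called between G280 and the control construct, beside 1293 of all 12321 genes (10.5%).

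**Figure D2:**
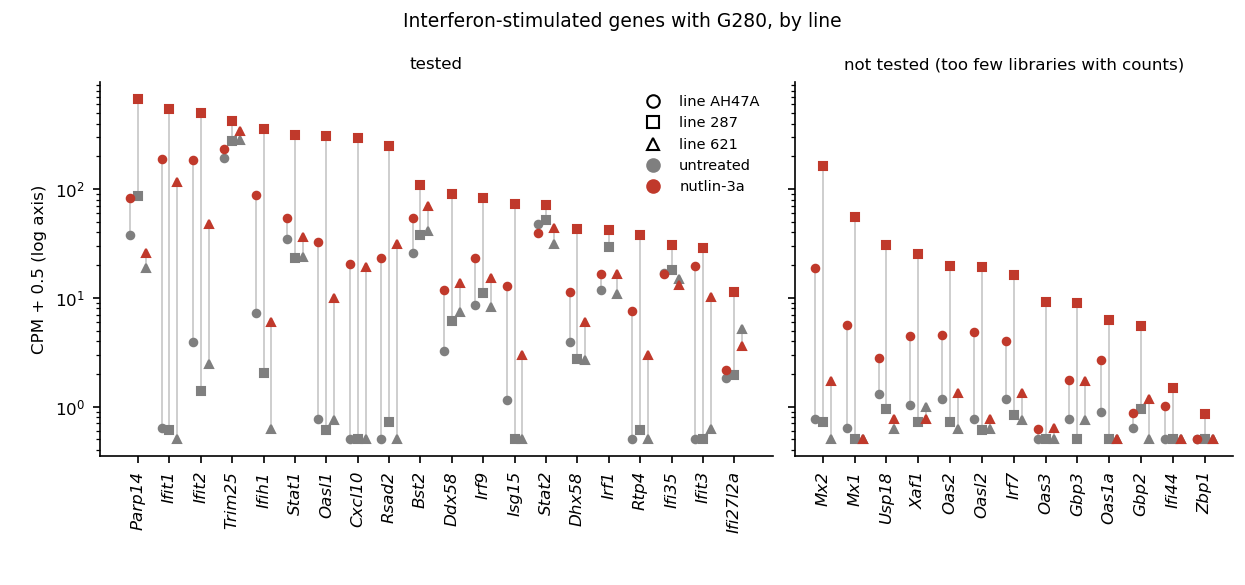
Level of 33 interferon-stimulated genes in the 6 libraries with G280, as CPM plus 0.5 on a log axis, ordered by the level in treated 287. The left panel holds the 20 tested members and the right panel the 13 not tested; shape gives the line and colour the treatment. Treated 287 is the highest library for each of the 13 genes not tested, and for Mx1, Oas1a and Ifi44 the treated 621 library stays at 0 counts. Genes near 0 untreated were left untested where a treated library was low, so such low values follow from the count filter.

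A short motif of interferon-driven promoters occurred in several risers. The letters GAAANNGAAA, read on both strands, the core of the interferon-stimulated response element, occurred in the promoters of 10 of 90 risers (11.1%), 1079 of all 27025 promoters (3.99%) and 302 of 8429 promoters of tested genes (3.58%). Among 9 risers of the interferon list with a promoter 7 held it (77.8%). The list was made of genes that interferon induces, and the share among its members that did not rise was not computed. None of the 10 falls with a promoter did. The riser Plk2, a p53 target, also held it. Ifit3 and Ifit3b carry near-identical stretches, and reads of such copies can be split between them. The stretches of 6 risers that interferon induces are shown because these genes rose together, and that of Ifit3 is left out for its copy; capitals mark the motif or its reverse complement, overlapping matches run together, and sequences are from RefSeq on GRCm38.p6, 5′ to 3′ on the gene's strand. Ifit1 lies at chr19:34640770-34640828 (plus strand), Cxcl10 at chr5:92349078-92349117 (minus), Rsad2 at chr12:26456548-26456587 (minus), Gbp5 at chr3:142496754-142496793 (plus), Isg15 at chr4:156200860-156200911 (minus) and Bst2 at chr8:71537572-71537617 (minus).
Ifit1: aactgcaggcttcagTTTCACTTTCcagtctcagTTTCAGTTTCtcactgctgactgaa
Cxcl10: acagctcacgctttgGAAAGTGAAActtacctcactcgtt
Rsad2: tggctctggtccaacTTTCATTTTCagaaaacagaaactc
Gbp5: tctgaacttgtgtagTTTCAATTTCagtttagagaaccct
Isg15: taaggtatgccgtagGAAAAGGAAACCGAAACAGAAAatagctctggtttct
Bst2: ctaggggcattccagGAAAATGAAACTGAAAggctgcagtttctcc

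Few stress and inflammatory signalling genes were called. Of 17 NF-κB genes tested, Rel, a subunit of the factor (log2 1.97 ± 0.22, adjusted p = 0.0163), and Nfkbia, its inhibitor (log2 1.66 ± 0.20, adjusted p = 0.0188), rose (11.8%, against 1.07% of all genes) and none fell (median 1.30). The call count was 5 without AH47A, 6 without 287 and 5 without 621. Of 22 genes of the ATF4 stress response none was called, with a median of 0.69 and 13 members higher in all lines. Over all 10928 genes tested, 2655 were higher in all lines. Trib3, a pseudokinase of that response, was at 3.87 ± 0.83 (adjusted p = 0.105). DESeq2 called 8 of the 22 higher, and without 287 or without 621 edgeR called 7 and 4. Cd69, an activation marker of lymphocytes, was the only riser of 13 mature B cell genes and went from 1.32, 3.31 and 1.34 CPM to 20.3, 72.9 and 10.4 CPM in AH47A, 287 and 621 (log2 3.92 ± 0.32, adjusted p = 0.00485). Itgam, the integrin CD11b, was the only riser of 3 myeloid markers tested, from 3.04, 14.8 and 1.34 CPM to 9.13, 39.8 and 3.55 CPM (log2 1.48 ± 0.21, adjusted p = 0.0349; 0.174 without AH47A). The T cell list had 2 genes tested, the fibroblast and endothelial lists 1 each, and none was called.

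Falls were fewer and smaller, and 3 of the 13 were of glycolysis and hypoxia genes, the largest of them Ankrd37. Ankrd37, a target of hypoxia-inducible factor, fell from 62.3, 7.07 and 70.4 CPM to 5.58, 1.45 and 6.55 CPM in AH47A, 287 and 621 (log2 -3.20 ± 0.27, adjusted p = 0.00509). Each treated library lay below every untreated one. Hk2, the hexokinase that starts glycolysis, fell from 221, 158 and 291 CPM to 112, 78.2 and 131 CPM (log2 -1.04 ± 0.13, adjusted p = 0.0189). Mif, a cytokine that hypoxia induces, fell from 168, 137 and 189 CPM to 93.6, 52.5 and 87.5 CPM (log2 -1.11 ± 0.15, adjusted p = 0.0282). Both groups were separate for both genes. Of 26 hypoxia and glycolysis genes tested these 3 fell (11.5%, against 0.119% of all genes) and none rose. The median was -0.87, and 17 were lower in all lines, beside 2886 of all 10928 genes. The call count was 1 without AH47A, 19 without 287 and 5 without 621. Hk2 and Mif were not called without AH47A (adjusted p = 0.122 and 0.0874), nor Mif without 621 (adjusted p = 0.0554).

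The other named falls were single genes of varied function. Slc16a3, the lactate exporter MCT4, fell on the strength of line 621, from 86.3 to 27.7 CPM, was at most 2.98 CPM elsewhere and was not tested without 621 (log2 -1.64 ± 0.26, adjusted p = 0.0446). Bhlha15, a transcription factor of secretory cells, fell from 71.5, 46.7 and 29.3 CPM to 36.5, 10.6 and 10.1 CPM (log2 -1.52 ± 0.25, adjusted p = 0.0487). Adam19, a membrane metalloprotease, fell from 49.0, 306 and 117 CPM to 19.4, 79.4 and 66.2 CPM (log2 -1.37 ± 0.22, adjusted p = 0.049993). The untreated and treated groups of these genes overlapped. The remaining 4 were 1810059H22Rik (log2 -2.00 ± 0.32), C78197 (-1.74 ± 0.26), C230062I16Rik (-0.93 ± 0.15) and Rsrp1 (-0.93 ± 0.13), with adjusted p from 0.0277 to 0.0492. Without AH47A the calls of C78197, Slc16a3, Bhlha15, Adam19, C230062I16Rik and Rsrp1 were lost (adjusted p from 0.0589 to 0.167), and without 621 those of Bhlha15, C230062I16Rik and Rsrp1 (adjusted p from 0.0618 to 0.0854). Of 12 early B lineage genes tested, only Vpreb3 fell (8.33%, against 0.119% of all genes), none rose, and the median was -0.70. Its log2 fold change was -0.91 ± 0.15 (adjusted p = 0.0479, and 0.233 without AH47A).

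Proliferation and sterol genes did not pass the test within the G280 response. None of 47 DNA replication genes, 40 mitosis genes or 32 genes of MYC and ribosome biogenesis was called, with medians of -0.13, -0.23 and -0.20. Myc itself was 3403, 2279.8 and 3729.7 CPM untreated and 3849.9, 3129 and 4658.5 CPM treated in AH47A, 287 and 621 (log2 0.33 ± 0.16, adjusted p = 0.269). It was higher after nutlin in every line, and its untreated and treated ranges overlapped. None of 24 sterol synthesis genes was called, yet 17 were lower in all lines, beside 2886 of all 10928 genes. The list median was -0.58, at -0.27 in AH47A, -1.07 in 287 and -0.34 in 621. DESeq2 called 4 of the 24 lower, as did edgeR without 287. None of 18 antigen presentation, 20 lysosome and autophagy or 5 plasma cell genes was called (medians 0.18, 0.21 and -0.40).

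**Figure D3:**
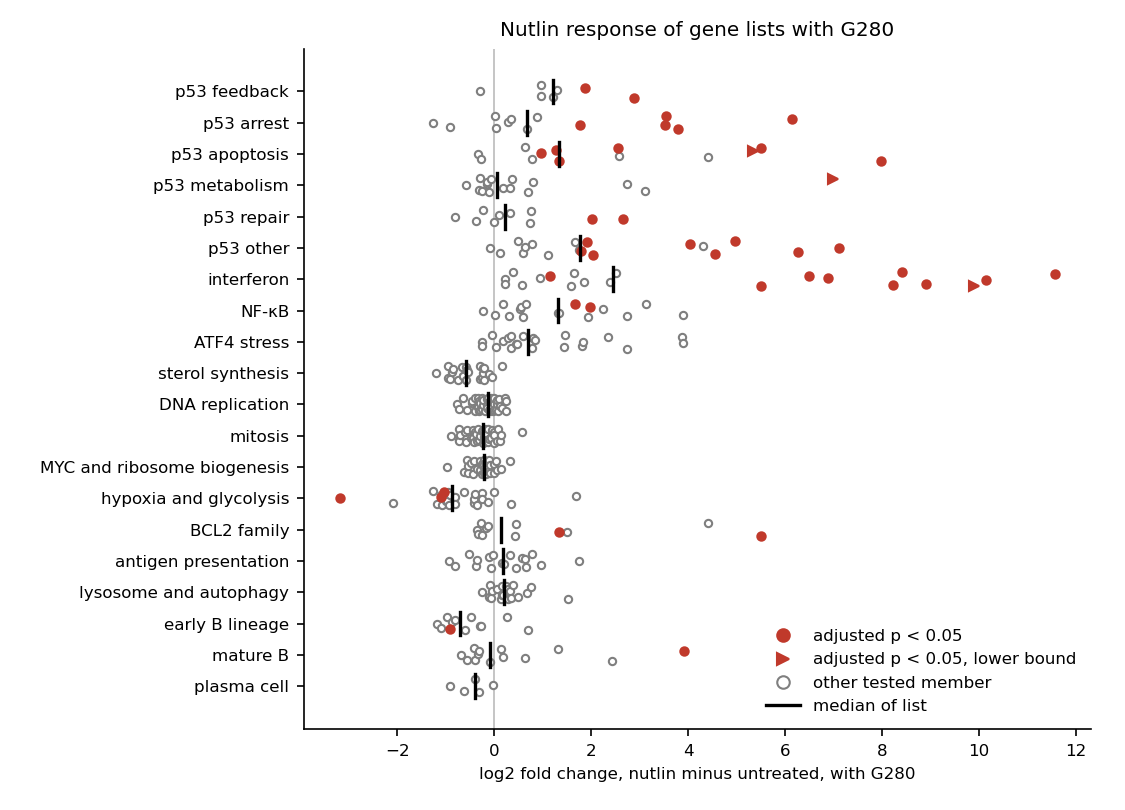
Log2 fold change of the G280 nutlin response for each tested member of 20 gene lists. Each point is 1 gene, filled where the adjusted p was under 0.05, triangles are lower bounds of genes without an untreated count, and black bars are list medians. Calls lie to the right in the p53 and interferon lists, and the hypoxia and glycolysis list, with a median of -0.87, holds 3 of the calls to the left.

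The 3 lines answered nutlin to different degrees. Among the 10928 genes tested, line 287 had 1181 genes at least 2-fold higher and 929 at least 2-fold lower after nutlin, against 395 and 139 in AH47A and 321 and 208 in 621. Across genes, the log2 ratios of AH47A and 287 had a correlation of 0.697, and each of them with 621 0.569, a description over genes that share libraries. When libraries of all 6 constructs were pooled by line, the response differed between lines for 7428 of 12321 genes (60.3%). By range over lines, among well expressed genes, the widest in G280 were Gdf11, Samd9l, Oasl1, Klf2, Atf3 and Neurl3. Gdf11, a growth factor of the TGF-β family, had log2 ratios of 1.08 in AH47A, 7.34 in 287 and 0.43 in 621 (line by treatment, adjusted p = 4.56e-15). Klf2, a factor of lymphocyte quiescence, moved in opposite directions: 3.64 in AH47A, -1.34 in 287 and -1.71 in 621 (adjusted p = 1.66e-11). Samd9l, an interferon-induced gene, had ratios of 3.59, 5.50 and -0.05 (adjusted p = 3.31e-11), its untreated level in 621 being 134 CPM against 1.72 and 4.31 CPM in AH47A and 287. Atf3, a stress-induced transcription factor, had ratios of 3.51, 6.72 and 1.51 (adjusted p = 8.42e-09), and Neurl3, a ubiquitin ligase, 3.34, 6.22 and 1.02 (adjusted p = 4.65e-12). The same test on Oasl1 gave an adjusted p of 0.498.

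Set against the negative control, G280 cells ended nutlin treatment with many p53 targets lower and many sterol and replication genes higher. In a fit over all 36 libraries in which each line has its own response, 1293 of 12321 genes (10.5%) differed between G280 and control under nutlin, 664 higher and 629 lower. Of the 12 panel genes, 9 were lower with G280. Cdkn1a was 199, 398 and 109.6 CPM with G280 and 400.2, 604 and 232 CPM with the control in AH47A, 287 and 621 (log2 -0.90 ± 0.16, adjusted p = 0.00140). Mdm2 was 247, 979 and 209 CPM against 442, 1416 and 362 CPM (log2 -0.73 ± 0.13, adjusted p = 0.000934). G280 was the lower of the pair in every line for both genes. Sesn2 (-1.02 ± 0.18, adjusted p = 0.00102), Fas (-1.79 ± 0.35, adjusted p = 0.00274), Phlda3 (-1.18 ± 0.27, adjusted p = 0.00714), Bbc3 (-0.80 ± 0.25, adjusted p = 0.0428), Trp53inp1 (-0.75 ± 0.16, adjusted p = 0.00559), Ccng1 (-0.44 ± 0.10, adjusted p = 0.00517) and Bax (-0.41 ± 0.09, adjusted p = 0.00283) were lower too. Trp53 was higher (1.52 ± 0.24, adjusted p = 0.000814). Pmaip1 (-0.50 ± 0.23, adjusted p = 0.170) and Myc (-0.15 ± 0.10, adjusted p = 0.347) did not pass.

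Under nutlin the calls in 5 p53 lists were all lower with G280, beside 664 higher and 629 lower among all 12321 genes tested. G280 was lower in 5 of 7 feedback genes, 5 of 13 arrest genes, 9 of 14 apoptosis genes, 6 of 17 metabolic targets and 10 of 19 further targets, and higher in none of them. Of 11 repair genes 2 were lower and Ung was higher (0.48 ± 0.12, adjusted p = 0.0111). ATF4 stress genes were lower in 12 of 23, among them Trib3 (-1.19 ± 0.30, adjusted p = 0.0121). Sesn2 and Ddit4 count both here and among the metabolic targets. Sterol synthesis genes were higher in 19 of 24, among them Hmgcs1, an early enzyme of the pathway (0.81 ± 0.15, adjusted p = 0.00157). DNA replication genes were higher in 24 of 47, among them Pcna, the sliding clamp (0.54 ± 0.08, adjusted p = 0.000156). Hypoxia and glycolysis genes were higher in 9 of 27. These counts depended on line 621 and on the fit. The treated control library of 621 had 5404113 counts, the lowest total of all 36, and the part of depth was not tested. Without 621 only 34 genes were called in all, 0 feedback, 1 arrest, 0 apoptosis, 1 sterol and 3 replication genes among them, and no panel gene (adjusted p from 0.0645 for Trp53 to 0.816 for Myc). Without AH47A the sterol count was 9 and the total 826, and without 287 the replication count was 13 and the total 922. With line as an additive term 2 genes were called in all, and without a line term 0.

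**Figure D4:**
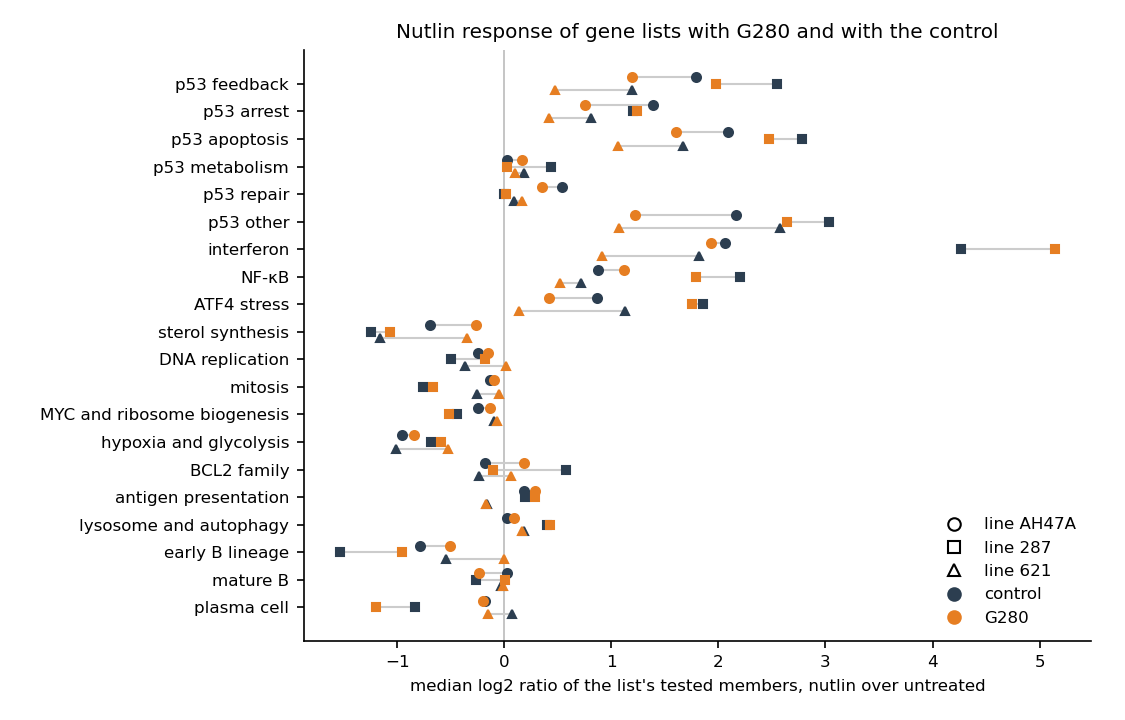
Median log2 ratio of treated over untreated CPM of each list's tested members, by line, with the control (dark) and with G280 (orange). Each point is the median of 1 list in 1 line, shape gives the line, and a thin line joins both constructs. For p53 feedback genes G280 lies left of the control in every line (1.20 against 1.79 in AH47A, 1.98 against 2.54 in 287, 0.48 against 1.19 in 621), and for sterol synthesis genes right of it (-0.27 against -0.69, -1.07 against -1.25 and -0.34 against -1.16).

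The response itself, treated against untreated, differed between G280 and control for 22 genes (0.179%), 19 with a larger value in G280 and 3 with a smaller one. All 19 had a log2 ratio below 0 with the control in every line and a higher one with G280. Elovl6, an enzyme that lengthens fatty acids, had log2 ratios of -1.49, -2.77 and -1.63 with the control and -0.49, -1.75 and -0.30 with G280 in AH47A, 287 and 621. The difference was 1.13 ± 0.15 (adjusted p = 0.000785). G280 lay above the control in all lines, while the untreated difference was 0.03 ± 0.11, which was not called. Sqle, squalene epoxidase of the sterol pathway, differed by 0.71 ± 0.14 (adjusted p = 0.0223). Pcna differed by 0.55 ± 0.11 (adjusted p = 0.0262), Uhrf1, which keeps DNA methylation through replication, by 0.60 ± 0.11 (adjusted p = 0.0218), Dna2, a nuclease and helicase outside the replication list, by 0.71 ± 0.14 (adjusted p = 0.0223), and E2f1, an S phase transcription factor, by 0.54 ± 0.12 (adjusted p = 0.0463).

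The remaining leading genes had other roles. Dag1, the matrix receptor dystroglycan, differed by 0.95 ± 0.17 (adjusted p = 0.0194), Fkbp5, a chaperone of steroid receptors, by 0.88 ± 0.16 (adjusted p = 0.0218), Rbm12, an RNA-binding protein, by 0.80 ± 0.15 (adjusted p = 0.0223) and Myo1c, an unconventional myosin, by 0.66 ± 0.13 (adjusted p = 0.0372). Leaving out a line ended most of these calls. Of the 22, 5 were called again without AH47A, 2 without 287 and 0 without 621. Elovl6 passed without 287 (adjusted p = 0.0106) and without AH47A (adjusted p = 0.0481) but not without 621 (adjusted p = 0.311). In a fit of only the G280 and control libraries 28 genes were called, 7 of the 22 among them. There Elovl6 (adjusted p = 0.00711), Dna2 (0.0252), Dag1 (0.0492) and Myo1c (0.0492) passed, while Pcna (0.0550), Uhrf1 (0.0519), Sqle (0.0697), E2f1 (0.121), Fkbp5 (0.0519) and Rbm12 (0.0697) did not. E2f1 did not pass with other size factors either (adjusted p = 0.0597). No panel gene of the p53 pathway was called in the fit of all libraries. The nearest were Sesn2 (-1.38 ± 0.33, adjusted p = 0.0658) and Mdm2 (-0.70 ± 0.18, adjusted p = 0.0782), whose log2 ratios were 2.49, 3.06 and 2.09 with the control and 1.69, 2.59 and 1.27 with G280. DESeq2 called both (adjusted p = 0.00796 and 0.0144), and the fit of only the G280 and control libraries called Mdm2 (adjusted p = 0.0154). For Cdkn1a the difference was -0.47 ± 0.44 (adjusted p = 0.713).

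**Figure D5:**
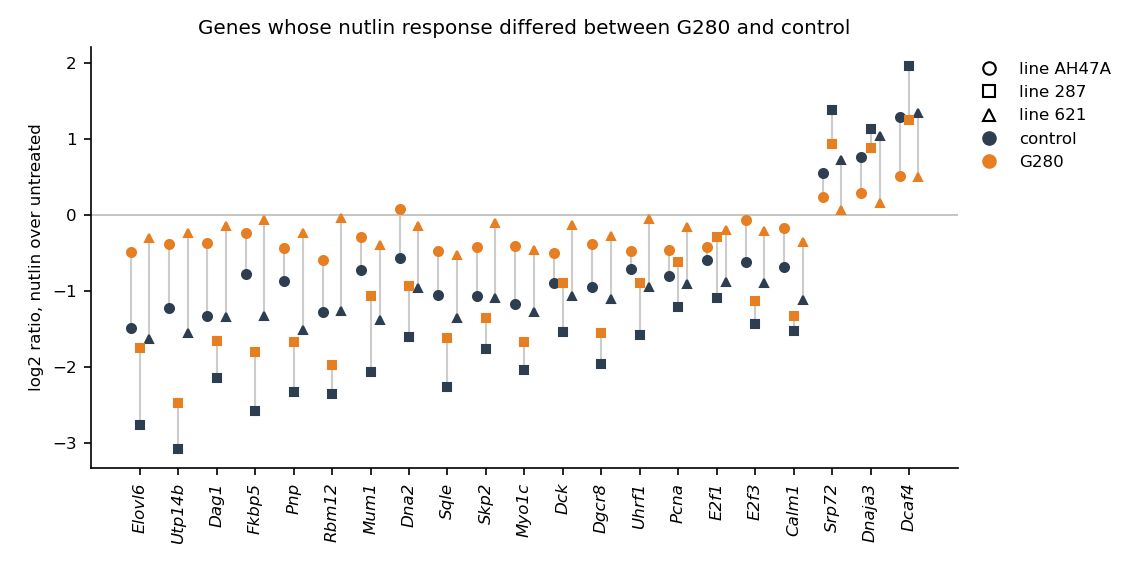
Log2 ratio of treated over untreated CPM, by line, with the control (dark) and with G280 (orange), for 21 of the 22 genes whose response differed. Each point is 1 construct in 1 line, shape gives the line, and a thin line joins both constructs. For 18 of them the fitted response was higher with G280 than with the control, and for 3 it was lower. Elovl6 is 1 of the 18, with G280 points at -0.49, -1.75 and -0.30 against control points at -1.49, -2.77 and -1.63.

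No gene was called as responding differently with G280 than with the mean of the other 4 mutants. The edgeR test called 0 of 12321 genes (0%), DESeq2 called 0, and 126 genes (1.02%) had an unadjusted p under 0.05. That share lies below what the threshold of 0.05 gives by chance alone. The edgeR test was thus strict here, and its 0 calls do not show that the responses are equal. Each construct's own response, against its own untreated libraries, is given side by side. The mean log2 ratio of Cdkn1a over lines was 6.71 ± 1.52 (SD, n = 3) with the control, 6.31 ± 1.70 with G280, 6.67 ± 0.76 for I192S cells, 6.50 ± 1.28 for R246Q, 6.83 ± 1.82 for R270H and finally 6.23 ± 0.90 for V170M. For Mdm2 it was 2.55 ± 0.49, 1.85 ± 0.67, 1.89 ± 0.94, 1.86 ± 0.48, 2.07 ± 0.62 and 1.58 ± 0.52 in that order. For Elovl6 it was -1.96 ± 0.71, -0.84 ± 0.79, -1.18 ± 0.57, -1.04 ± 0.71, -1.09 ± 0.69 and -0.81 ± 0.51. The G280 mean lay within 1 SD of every other mutant's mean in all 3 genes, and for Cdkn1a within 1 SD of the control's mean too. These SDs are spreads over lines and ignore the pairing by line, so they do not test likeness between constructs. Acoxl, which had 1 of the 10 smallest p-values of that comparison, had an adjusted p of 1.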

How the data were processed

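RNA-seq libraries from mouse lymphoma cell lines were analysed from gene counts that the authors deposited. bcl2fastq 1.8.4, featureCounts and the build mm10 (GRCm38) are named, per the submitters' processing notes. The sources used here do not name an aligner, annotation or strandedness, so reads of overlapping or near-identical genes can be shared. The 36 per-sample files and the joint table of 27179 genes held identical values, and 859 genes had no symbol.

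The G280 response was tested on the 6 G280 libraries with edgeR 4.0.16 (R 4.3.3; quasi-likelihood, TMM scaling, cell line as block, Benjamini-Hochberg adjustment). Genes were kept by filterByExpr with a count minimum of 10, which left 10928 genes with 99.703% of counts. The spread of the response over lines beyond counting error was 18.5% (edgeR's biological coefficient of variation), with 2 degrees of freedom left. Differences in level between lines are taken up by the block and are not part of it. Differences between constructs were tested in 1 fit of all 36 libraries with line and line by treatment (12321 genes, 20 degrees of freedom). The spread there, 9.68%, is that of constructs within lines. The same lines occur in every group, and deviations from group means correlated at 0.699 to 0.860 within a line and at -0.205 to -0.561 between lines, over genes. With 3 libraries per group these deviations sum to 0, which by itself pushes the values between lines below 0. The scripts were tested on simulated data. DESeq2 1.42.0, other scaling, no filter, other designs and leaving out each line were alternatives. Ratios over 1 to 3 untreated counts have exact 95% intervals, and intervals and floors cover counting error only.

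The comparisons, members and gene lists were chosen with earlier results of these data known. Named genes were a panel of 12, the 10 largest called rises and falls of one sign in all lines with a mean of at least 5 CPM, up to 4 called members of each list in its main direction and 2 in the other, the 10 smallest p-values of each difference in response, the 6 widest ranges over lines at a mean of at least 20 CPM, and risers with a p53 site. Uncalled members and members of the BCL2 family named besides these were chosen after their values were seen. Of the tested genes 10696 matched RefSeq. The values of 1 gene named by this rule are not reported here, although it is kept in all counts.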

Additional observations from a re-analysis of the deposited data

Results flagged for a closer look

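The response to nutlin differed between G280 and the control, by a test of the difference itself, for 22 genes. Of the 10 with the smallest p-values, 9 are given here. They had a G280 response minus control response, on the log2 scale, of 1.13 for Elovl6, 0.95 for Dag1, 0.88 for Fkbp5, 0.60 for Uhrf1, 0.80 for Rbm12, 0.71 for Sqle, 0.71 for Dna2, 0.55 for Pcna and 0.66 for Myo1c. With groups of 3 libraries no single library could be tested as standing apart from its group.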

How the results depend on the processing

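The 130 called genes of the G280 response (117 higher, 13 lower) became 591 with DESeq2 (410 and 181), 391 without the filter on low counts (295 and 96) and 2144 in an additive fit of all 36 libraries (1318 and 826), against 139 with other size factors. In a fit with no replicate block, which ignores that the libraries are paired by line, 0 were called and 786 genes had an unadjusted p under 0.05. The share of calls that rose was 90% and became 69.37%, 75.45% and 61.47% in the first 3 of these. Leaving out each line gave 73 to 562 calls, 71 to 361 higher and 2 to 201 lower, with 97.26% rising without AH47A and 64.23% without 287. The 22 genes whose response differed from the control became 14 with other size factors, 243 with DESeq2, 0 without the line block, 0 without line by treatment, 28 with only the G280 and control libraries (7 of the 22 among them), and 0 to 9 when a line was left out. The 1 untreated difference became 0 to 2 when a line was left out. The 1293 differences under nutlin became 2 without line by treatment, 0 without the block, and 34 to 922 when a line was left out. The cause was not tested. The comparison with the other mutants stayed at 0 in every alternative. Of 672 single-gene values recomputed, 467 kept direction and call, 194 lost the call, 10 gained it and 1 changed sign. Of 384 counts of list members 290 stayed within 1.5 times and 94 did not. The changed sign was in Myc: the G280 response minus control response of Myc was -0.12 to 0.042 when a line was left out, the upper value without 621. In genes near 0 untreated, depth limits the size of the ratio.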

Other observations

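The following genes were picked from the risers with G280 after their values were seen, so their number says nothing of a gene group. Jun, a subunit of the AP-1 factor, was 6.61, 11.9 and 2.57 CPM untreated and 224, 206 and 35.4 CPM treated in AH47A, 287 and 621 (log2 4.38 ± 0.28, edgeR adjusted p = 0.00152). Its partners Fos (log2 4.05 ± 0.41, adjusted p = 0.0118) and Fosb (log2 3.91 ± 0.33, adjusted p = 0.00509) and the zinc finger gene Klf6 (log2 2.77 ± 0.38, adjusted p = 0.0281) also rose. None of these 4 had a treated library below an untreated one.

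Hist1h2bc, a histone gene, rose from 20.6, 7.40 and 4.89 CPM to 282, 75.9 and 26.2 CPM in AH47A, 287 and 621 (log2 3.26 ± 0.27, edgeR adjusted p = 0.00509). The linker histone genes Hist1h1c (log2 2.63 ± 0.31, adjusted p = 0.0178) and H1f0 (log2 2.51 ± 0.31, adjusted p = 0.0206) rose too. These 3 genes were highest in treated AH47A. Ifnb1, the interferon beta gene, had 21 counts in treated 287, 1 in untreated 287 and 0 in the other G280 libraries.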
